A study of Mus musculus with 19 samples.

Results

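Interscapular brown fat of mouse embryos at E17.5 was compared between 4 arrays of Myf5CreMed1f/f tissue and 3 arrays of Myf5CreMed1f/w tissue, 7 of the 19 arrays of the series. The members are these 7 arrays, chosen by their sample titles, and every gene read by a transcript cluster with a single symbol, 22180 genes out of 41345 clusters. All 7 samples carried Myf5-Cre, which acts in the precursors of skeletal muscle and brown fat. In the f/f group both Med1 alleles were floxed, and in the f/w group 1 allele was floxed and the other was wild type, so the control tissue also carried Cre and a floxed allele. No embryo without Cre was among the 7. The labels give no litter, sex or number of embryos per array, and they do not say whether replicates were separate embryos, so a p-value here reflects how far these 7 arrays scatter, and some of that scatter could be technical. The series also holds 3T3-L1 cells with and without MED1, and adult brown fat at 10 weeks. The adult tissue was 2 arrays of AdipoqCreMed1f/f and 2 of Med1f/f without Cre. The cells enter no comparison here, and the adult tissue enters the last one; all 19 arrays served to choose among clusters of a gene and entered an alternative fit.

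Brown fat burns fuel to make heat. Its mitochondria oxidise fatty acids and pyruvate, and UCP1 in their inner membrane lets protons flow back without making ATP. Brown fat precursors share a Myf5-positive origin with skeletal muscle in the embryo, stop dividing, and switch on the thermogenic genes shortly before birth. MED1 is a subunit of Mediator, the complex that joins DNA-bound factors to RNA polymerase II, and it is known as the subunit that nuclear receptors such as PPARG and the thyroid hormone receptors bind. The design asks what the loss of Med1 from this lineage does to the RNA of fetal brown fat. Values are log2 signals summarised by RMA, a value after ± is the standard error of a log2 fold change, and a gene is said to have risen or fallen when its limma p, adjusted over all genes, was under 0.05.

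The labelled tissue was checked against its markers. Fat cell genes were bright in every array: Fabp4, a fatty acid binding protein, lay between 12.11 and 12.39, and Cidea, a lipid droplet protein of brown fat cells, between 9.68 and 11.76, where the median gene of an array lay between 4.04 and 4.06. Skeletal muscle genes were also bright, with Acta1, the actin of skeletal muscle fibres, between 8.09 and 10.7. The first principal component held 51.8% of the variance and separated the genotypes. On it the control array f/w 3 lay farthest from the knockout arrays, at 36.3 against 10.3 and 18.7 for the other controls and -25.3 to -10.4 for the f/f arrays. The mean signal of 45 skeletal muscle structural genes was 6.09, 6.15 and 5.27 in the f/w arrays and 6.8, 6.62, 6.61 and 6.58 in the f/f arrays. The muscle signal was thus higher in every f/f array than in every control, and lowest in f/w 3. In bulk tissue fewer cells of a type and less RNA per cell cannot be told apart.

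Med1 itself was read by 1 cluster. Its signal was 6.94, 7.33 and 7.82 in the f/w arrays and 7.0, 7.1, 7.1 and 6.88 in the f/f arrays. The groups overlapped, since f/w 1 lay at the level of the f/f arrays. The log2 fold change was -0.35 ± 0.19 (adjusted p = 0.369). Without f/w 3 it was -0.12, and without f/w 1 it was -0.56. Which exon the floxed allele loses is not given in the sources used here, and probes outside a deleted exon read RNA of the deleted allele too, so this cluster does not check the labels. Of the 33 Mediator subunits, Med1 included, limma called none, where it called 1.16% of all genes. An unadjusted p under 0.05 was reached by 2 of the 33, beside 4447 of all 22180 genes. The median log2 fold change of the subunits was 0.04. Apart from Med1, their log2 fold changes ran from -0.28 for Med12l to 0.29 for Med14.

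Across the tissue, 257 of 22180 genes passed (1.16%), 111 of them lower in f/f (0.5%) and 146 higher (0.658%), with adjusted p between 0.036 and 0.05. The arrays of the groups did not overlap for any of the 257. Over all genes 15.4% had no overlap, 8.56% with every f/f array above every f/w array and 6.83% with every f/f array below. An unadjusted limma p under 0.05 was reached by 4447 of the 22180 genes. These shares are the background for the counts given for each list below. Among the called genes 30 were lower and 17 higher by 2-fold or more. The median log2 fold change of all genes was -0.01, and 46.2% were positive. These calls are close to the threshold. With any array left out, limma called no gene, with a smallest adjusted p from 0.0506 (without f/w 1) to 0.111 (without f/f 4), while 2991 to 4548 genes had an unadjusted p under 0.05. Since none of the 257 overlapped between the groups, leaving out an array could not turn their direction. Their median size relative to the full fit was 0.903 without f/w 3 and between 0.957 and 1.05 without each of the others.

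Because the muscle signal moved with the genotype, the fit was repeated with the mean muscle signal of each array as a covariate. All 257 genes kept their direction, at a median of 0.754 of their size, and limma called none (smallest adjusted p = 0.817, 1260 genes with an unadjusted p under 0.05). The covariate was itself higher in every f/f array (6.58 to 6.8) than in every control (5.27 to 6.15), with f/w 3 far under the other controls. With 7 arrays such a fit cannot tell muscle content from genotype. Its values show how the results shift and are not effects corrected for muscle. For the larger gene groups the median without f/w 3 and with this covariate is given beside the group.

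**Figure D1:**
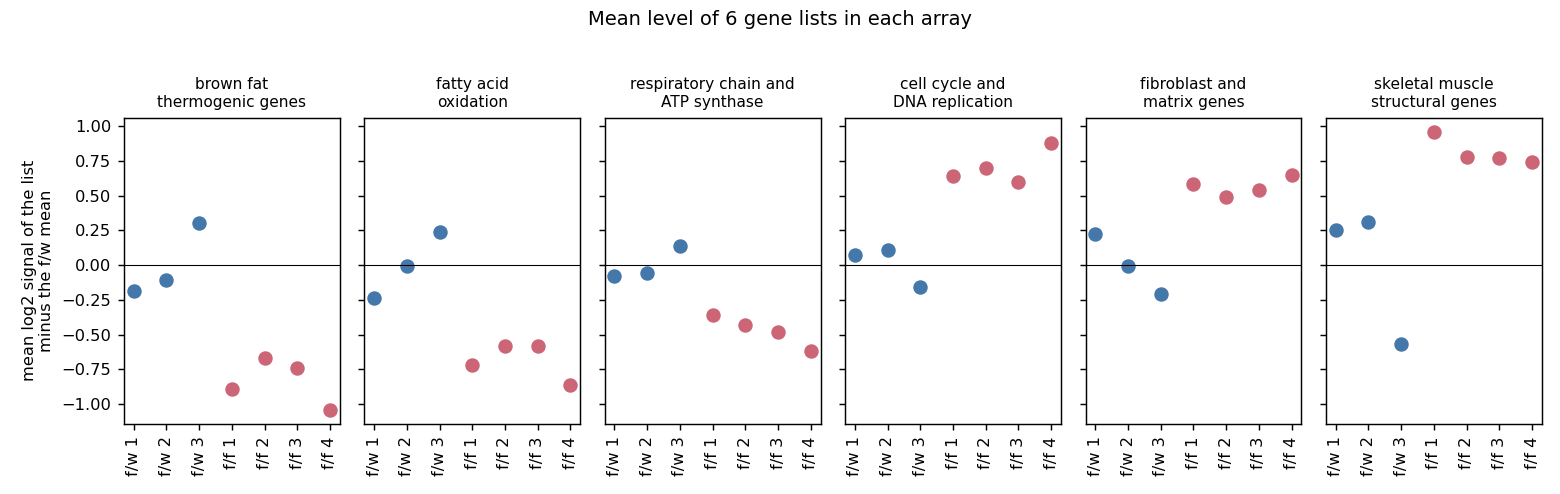
Mean log2 signal of 6 gene lists in each of the 7 arrays, with the mean of the 3 f/w arrays set to 0 (vertical axis, log2 units; blue f/w, red f/f). In the brown fat, fatty acid oxidation and respiratory chain panels the 4 f/f arrays lie lower than the 3 f/w arrays, in the other 3 panels higher, and f/w 3 is the control farthest from the f/f arrays in every panel.

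Brown fat thermogenic genes had the lowest median of the 41 gene lists. Of 32 measured genes of this list 7 fell, beside 0.5% of all genes, and none rose. Of the 32, 20 had every f/f array below every f/w array, beside 6.83% of all genes. The median log2 fold change was -0.86. Ucp1 had signals of 10.64, 10.07 and 11.59 in the f/w arrays and 7.37, 8.34, 7.57 and 7.23 in the f/f arrays. The highest f/f array was still well under the lowest control, and f/w 3 was the highest of all. The fall was 8.79-fold, or -3.14 ± 0.40 on the log2 scale (adjusted p = 0.0439), -2.72 without f/w 3 and -1.95 with the muscle covariate. Dio2, the deiodinase that makes active thyroid hormone inside the brown fat cell, stood at 6.59, 6.72 and 7.07 against 4.93, 5.52, 5.06 and 5.02. Here the 3 controls lay close together, and the fall of 1.66 ± 0.17 on the log2 scale (adjusted p = 0.036) was among those with the smallest adjusted p.

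Gpd2, the mitochondrial glycerol 3-phosphate dehydrogenase that feeds electrons from the cytosol into the respiratory chain, had signals of 7.72, 8.01 and 8.78 against 5.92, 6.7, 6.38 and 6.11 (log2 fold change -1.89 ± 0.28, adjusted p = 0.0459). Pank1, which starts the synthesis of coenzyme A, had 7.8, 7.7 and 8.48 against 5.91, 6.6, 6.37 and 6.05 (-1.76 ± 0.24, adjusted p = 0.0459). In both genes f/w 3 was the brightest array and f/f 1 the dimmest. Slc25a20, the carrier that brings acylcarnitines into mitochondria, had 9.56, 9.84 and 10.36 against 8.45, 8.72, 8.54 and 8.25 (-1.43 ± 0.20, adjusted p = 0.0459). Plin5, a droplet protein that ties lipid droplets to mitochondria, had 8.05, 8.28 and 8.5 against 7.18, 7.26, 6.82 and 6.38 (-1.37 ± 0.22, adjusted p = 0.047). P2rx5, an ATP-gated channel used as a surface marker of brown fat cells, was the other gene of the list that fell, by 1.3 (adjusted p = 0.0459); it lies outside the naming rule. Without f/w 3 the log2 fold changes were -1.59 for Gpd2, -1.52 for Pank1, -1.52 for Dio2, -1.21 for Slc25a20 and -1.25 for Plin5. Fitted with the muscle covariate, they were -0.99, -1.02, -1.24, -0.85 and -1.19 in the same order.

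Several genes by which brown fat is usually recognised did not pass. Cidea was 11.14, 11.29 and 11.76 against 10.3, 10.42, 10.32 and 9.68, without overlap, at a log2 fold change of -1.21 ± 0.22 (adjusted p = 0.0544). Cox8b, the heart and brown fat form of a cytochrome oxidase subunit, had -1.64 (adjusted p = 0.0633), and Cox7a1, another such subunit, -0.99 (adjusted p = 0.0634). Pdk4, the kinase that shuts pyruvate dehydrogenase, had -1.31 ± 0.27 (adjusted p = 0.0656). Ppara, a nuclear receptor for fatty acids, had -1.29 with the same adjusted p. Elovl3, a fatty acid elongase, was dim and spread widely among the controls, at 3.4, 2.9 and 4.74 against 3.07, 3.17, 2.9 and 2.91 (adjusted p = 0.398). Ppargc1a, a coactivator of mitochondrial genes, had 8.67, 8.85 and 8.9 against 8.25, 8.46, 8.56 and 7.99 (-0.49 ± 0.14, adjusted p = 0.118). Zic1, a transcription factor gene that marks classical brown fat precursors, had every f/f array above every control, at 0.42 (adjusted p = 0.136). The median of the list was -0.66 without f/w 3 and -0.39 with the muscle covariate.

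**Figure D2:**
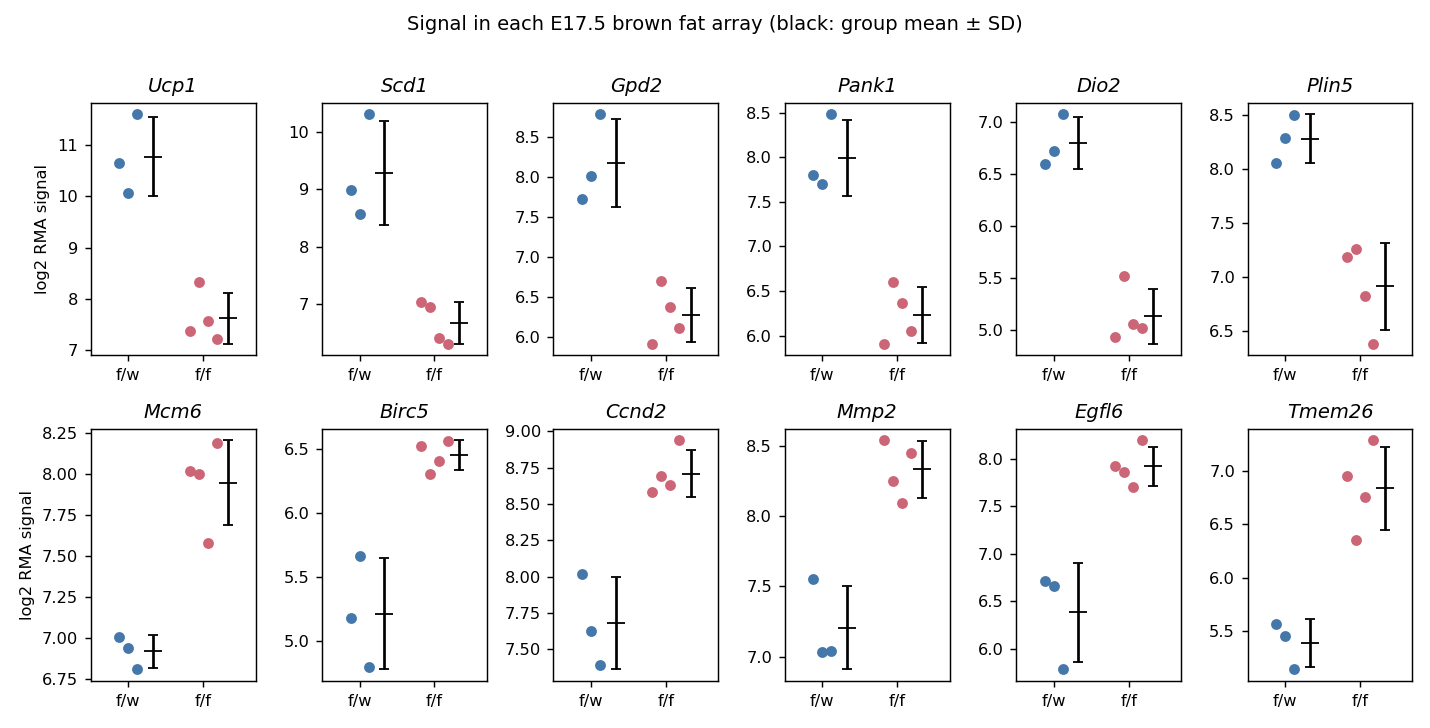
Log2 RMA signal of 12 genes in the 3 f/w arrays (blue) and 4 f/f arrays (red), each point an array in replicate order; black bars show the group mean ± SD, and each panel has its own vertical axis, which does not start at 0. Ucp1, Scd1, Gpd2, Pank1, Dio2 and Plin5 are lower and Mcm6, Birc5, Ccnd2, Mmp2, Egfl6 and Tmem26 higher in f/f, with no overlap in any panel.

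The enzymes that burn fatty acids were lower along most of the route. Of 30 measured fatty acid oxidation genes 24 had every f/f array below every control, beside 6.83% of all genes, and the median was -0.68. None rose, and 6 fell, beside 0.5% of all genes. Besides Slc25a20 these were Ehhadh, a peroxisomal enzyme (log2 fold change -1.05, adjusted p = 0.0452), Acaa2, the thiolase of the last step (-0.86, adjusted p = 0.0487), Acadl, the long-chain acyl-CoA dehydrogenase (-0.65, adjusted p = 0.046), and Etfdh (-0.82, adjusted p = 0.0459) and Etfa (-0.61, adjusted p = 0.046), which hand the electrons of these dehydrogenases to ubiquinone. Etfdh had signals of 11.19, 11.3 and 11.54 in the f/w arrays and 10.38, 10.63, 10.68 and 10.38 in the f/f arrays, with a gap between the groups wider than the range of either. Acaa2 had 10.87, 11.04 and 11.28 against 10.37, 10.27, 10.29 and 9.87. The gene with a positive fold change in this list was Cpt1a, the liver form of the enzyme that admits fatty acids to mitochondria, at 0.21 (adjusted p = 0.42). Cpt1b, its muscle and brown fat form, had no cluster of its own and was not tested.

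The citric acid cycle and the entry of pyruvate into it showed the same direction. The median of the 28 measured genes was -0.54, and none rose. Of the 28, 6 fell, beside 0.5% of all genes. Sucla2 and Suclg1, which together form a succinyl-CoA synthetase, were among them: Sucla2 had 9.47, 9.57 and 9.99 against 8.52, 8.73, 8.92 and 8.44 (-1.03 ± 0.16, adjusted p = 0.046), and Suclg1 had 8.54, 8.45 and 9.07 against 7.84, 7.72, 7.83 and 7.51 (-0.96 ± 0.16, adjusted p = 0.0485). Suclg2, the other partner of Suclg1, was -0.25 (adjusted p = 0.237). Of pyruvate dehydrogenase, Pdha1 fell by 0.69, Dld by 0.57 and Pdhb by 0.56 on the log2 scale. Idh3a, a subunit of isocitrate dehydrogenase, fell by 0.55. Idh2, the NADP-linked form, was at 0.01 (adjusted p = 0.96).

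All 39 measured genes of the respiratory chain and ATP synthase had a negative fold change. Of these, 32 lay below the controls without overlap, beside 6.83% of all genes. The median of the 39 was -0.48, with a range from -0.89 to -0.02. The test called 2 of the 39, beside 0.5% of all genes called lower. Ndufs1, the largest subunit of complex I, had 10.03, 10.03 and 10.26 against 9.48, 9.5, 9.59 and 9.51 (-0.59 ± 0.07, adjusted p = 0.0439), and Uqcrc2, a core subunit of complex III, had 11.36, 11.34 and 11.46 against 11.09, 10.99, 10.92 and 10.88 (-0.42, adjusted p = 0.047). The 5 measured ATP synthase genes lay closer to 0 than the list median, from -0.4 for Atp5o to -0.02 for Atp5j. Without f/w 3 the medians were -0.57 for fatty acid oxidation, -0.49 for the citric acid cycle and -0.41 for the respiratory chain. With the muscle covariate they were -0.36, -0.28 and -0.32.

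Peroxisomes shorten very long and branched fatty acids. Of 24 measured peroxisome genes 5 fell, beside 0.5% of all genes, and none rose, with a median of -0.34. Phyh, which starts the breakdown of phytanic acid, had 7.72, 7.47 and 8.04 against 6.64, 6.91, 6.72 and 6.32 (-1.09 ± 0.17, adjusted p = 0.046). The others were Ehhadh, Abcd3, a transporter of the peroxisomal membrane (-0.77), Pex16, needed to build that membrane (-0.77), and Scp2, a thiolase and lipid carrier (-0.63). Nudt7, which degrades coenzyme A in peroxisomes and was listed under coenzyme A metabolism, fell by 1.09 ± 0.11 (adjusted p = 0.036). Acot1, a cytosolic thioesterase that frees coenzyme A from acyl-CoA, rose in that list: its signals were 4.55, 4.54 and 4.46 against 5.03, 5.19, 5.0 and 5.33 (0.63, adjusted p = 0.0459). Of the 17 genes of that list, 2 fell and 1 rose, beside 0.5% and 0.658% of all genes. The median of the peroxisome list was -0.28 without f/w 3 and -0.21 with the muscle covariate, where Abcd3 was at -0.35, Pex16 at -0.47, Scp2 at -0.35 and Phyh at -0.71.

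**Figure D3:**
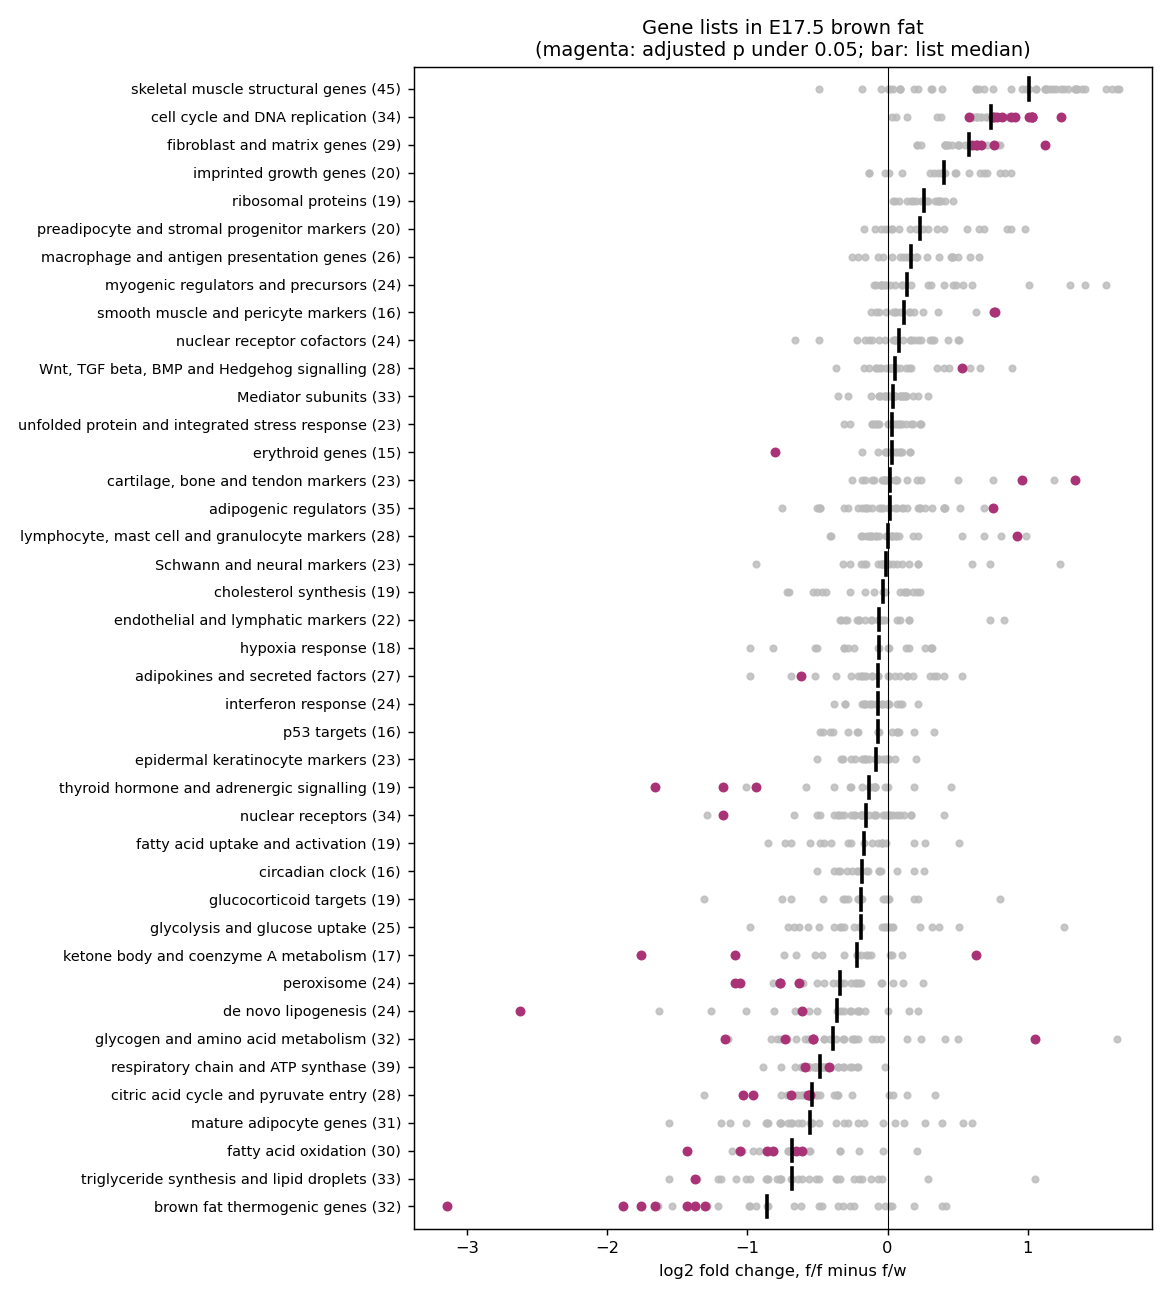
Log2 fold change (f/f minus f/w, horizontal axis) of every measured member of 41 gene lists, 1 row per list with the number of measured members in brackets; magenta points passed the test at adjusted p under 0.05, grey points did not, and the black bar is the list median. Medians run from -0.86 for brown fat thermogenic genes to 1.01 for skeletal muscle structural genes, and the latter list has no magenta point.

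Fat storage and synthesis genes were lower with few calls. Scd1, the desaturase that makes monounsaturated fatty acids, had signals of 8.99, 8.57 and 10.31 in the f/w arrays and 7.03, 6.95, 6.41 and 6.31 in the f/f arrays. It fell 6.14-fold at -2.62 ± 0.41 on the log2 scale (adjusted p = 0.046), and stood at -2.11 without f/w 3, its brightest array, and at -1.35 with the muscle covariate. Hsd17b12, which acts in fatty acid elongation, fell by 0.61 (adjusted p = 0.0481). These were the 2 called genes of 24 in the lipogenesis list, beside 0.5% of all genes called lower. The median of the list was -0.36. Acly, which makes acetyl-CoA from citrate, had 8.67, 8.91 and 9.17 against 8.22, 8.42, 8.22 and 8.17, without overlap (-0.66 ± 0.12, adjusted p = 0.0604). Fasn, the fatty acid synthase, overlapped between groups (-0.81 ± 0.27, adjusted p = 0.168). So did the regulators of this pathway, Srebf1 (-0.50, adjusted p = 0.209) and Mlxipl (-0.22, adjusted p = 0.636).

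Of 33 genes of triglyceride synthesis and lipid droplets, Plin5 alone passed, beside 0.5% of all genes called lower. The median was -0.68. In 18 of the 33 every f/f array lay below every control, beside 6.83% of all genes. Gpam, the acyltransferase that opens triglyceride synthesis, had -1.08 ± 0.23 (adjusted p = 0.0708), and Dgat2, which closes it, -0.68 ± 0.21 (adjusted p = 0.144). Plin1, the main coat protein of fat cell droplets, had 8.35, 8.65 and 9.03 against 7.73, 8.13, 8.18 and 7.65 (-0.76 ± 0.20, adjusted p = 0.0977). limma called none of 31 mature adipocyte genes (24 at an unadjusted p under 0.05, beside 4447 of all 22180 genes). Their median was -0.55, and 17 lay without overlap below the controls, beside 6.83% of all genes. The spread within this list was wide: Adipoq, the adipokine adiponectin, was 8.97, 9.0 and 9.0 against 8.91, 8.88, 8.65 and 8.67 (-0.21 ± 0.08, adjusted p = 0.205), Fabp4 was -0.17 ± 0.06 (adjusted p = 0.216) and Lep, the adipokine leptin, 0.05 ± 0.31 (adjusted p = 0.942), while Lpl, the lipase that takes up circulating triglyceride, was -0.55 ± 0.15 (adjusted p = 0.112). Cd36, a fatty acid transporter, was -0.28 (adjusted p = 0.0999) and Slc2a4, the insulin-dependent glucose transporter, -0.71 (adjusted p = 0.127). With the muscle covariate the medians were -0.07 for lipogenesis, -0.25 for triglyceride synthesis and -0.24 for mature adipocyte genes.

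The list of adipogenic regulators mixes factors that make fat cells with genes that hold back their formation, such as Dlk1. Its median therefore describes neither kind alone. Of 35 measured adipogenic regulators none fell and 1 rose, beside 0.5% and 0.658% of all genes, and the median was 0.02. Of the 35, 15 had an unadjusted p under 0.05, beside 4447 of all 22180 genes. Without overlap 6 lay above and 6 below the controls, beside 8.56% and 6.83% of all genes. Pparg, the nuclear receptor at the centre of adipogenesis, had signals of 10.05, 9.98 and 10.07 in the f/w arrays and 9.86, 9.83, 9.61 and 9.6 in the f/f arrays. Every f/f array was below every control, by a small amount that did not pass (-0.31 ± 0.08, adjusted p = 0.106). Cebpa, its partner, had 8.71, 9.09 and 8.94 against 8.43, 8.62, 8.4 and 8.24 (-0.49 ± 0.12, adjusted p = 0.0788), and Cebpb, which acts earlier, 6.34, 5.91 and 6.15 against 5.61, 5.76, 5.43 and 5.79 (-0.48 ± 0.13, adjusted p = 0.101). Ebf2 and Prdm16, factors that specify brown fat, overlapped between groups: Ebf2 had 9.41, 9.77 and 9.54 against 9.41, 9.56, 9.61 and 9.51 (-0.05 ± 0.09, and 0.02 after quantile normalization), and Prdm16 had 5.23, 5.97 and 5.85 against 5.35, 5.78, 5.68 and 5.5 (-0.11 ± 0.19, and 0.15 with the muscle covariate). The gene that rose was Tcf7l1, a transcription factor of the Wnt pathway, at 6.89, 6.78 and 6.64 against 7.24, 7.51, 7.76 and 7.56 (0.75 ± 0.12, adjusted p = 0.0481). Its relative Tcf7l2 also rose, by 0.53 ± 0.08 (adjusted p = 0.0459), as the sole called gene of 28 in the signalling list of Wnt, TGF beta, BMP and Hedgehog genes, whose median was 0.05. Of 24 nuclear receptor cofactors limma called none (10 at an unadjusted p under 0.05, median 0.08).

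Thyroid hormone and adrenergic input switch on heat production. Of 19 measured genes of these pathways 3 fell, beside 0.5% of all genes, and none rose, with a median of -0.13. Beside Dio2 these were Thrb, a thyroid hormone receptor, at 6.28, 6.78 and 7.13 against 5.5, 5.6, 5.71 and 5.46 (-1.17 ± 0.18, adjusted p = 0.046), and Prkar2b, a regulatory subunit of the cyclic AMP-dependent kinase, at 10.06, 10.25 and 10.57 against 9.14, 9.48, 9.55 and 9.26 (-0.94 ± 0.15, adjusted p = 0.046). Thra, the other thyroid hormone receptor, was at 0 (adjusted p = 0.996). Thrb was also the called gene among 34 nuclear receptors, whose median was -0.15. Of the 27 adipokines and secreted factors Nampt fell, by 0.62 ± 0.09 (adjusted p = 0.046), and none rose (median -0.07). Nampt makes the NAD precursor nicotinamide mononucleotide. With the muscle covariate the medians were -0.02 for thyroid hormone and adrenergic genes and -0.02 for nuclear receptors, and Thrb was at -0.64 and Prkar2b at -0.52.

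Of 32 genes of glycogen and amino acid metabolism 4 fell and 1 rose, beside 0.5% and 0.658% of all genes. The median was -0.39 (-0.28 without f/w 3, -0.19 with the muscle covariate). Gbe1, the glycogen branching enzyme, had 8.41, 8.27 and 8.71 against 7.28, 7.52, 7.47 and 6.93 (-1.16 ± 0.17, adjusted p = 0.0459). The other 3 belong to the breakdown of branched-chain amino acids and of the propionyl units it yields: Bckdhb fell by 0.73, Mmut by 0.53 and Hibch by 0.53 on the log2 scale. The riser was Phgdh, which opens serine synthesis, at 4.68, 4.55 and 4.19 against 5.67, 5.35, 5.31 and 5.79 (1.05 ± 0.16, adjusted p = 0.0459).

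The promoters of the called genes were searched for short motifs in the 250 bases before the start site, from RefSeq on GRCm38.p6, which held a window for 16990 of the 22180 genes. A gene was counted once, as a match if the window of any of its start sites held the motif. Counts and shares of windows are therefore counts and shares of genes. A gene with several start sites had more chances to match. AGGTCA, the core motif that nuclear receptors bind, searched on both strands, was in 22 of 85 windows of genes that fell (25.9%), in 8 of 109 of genes that rose (7.34%) and in 2439 of 16990 in all (14.4%). A pair of AGGTCA in the same direction with any 1 base between them (direct repeat 1) was in none of the 85 or the 109 windows and in 10 of 16990 in all (0.0589%). Genes that fell and hold AGGTCA included Ucp1, Plin5, Sucla2, Thrb, Nampt, Bckdhb and Scp2. The windows of 3 of them are shown because they belong to the thermogenic, droplet and citric acid cycle genes described above. They are examples and do not stand for the share in their lists. AGGTCA was in 5 of 26 windows of the brown fat thermogenic list and in 4 of 25 of the fatty acid oxidation list. For the citric acid cycle list it was in 3 of 25, beside 14.4% of all windows. Plin5 has 2 start sites, and 1 window is shown. Capitals mark AGGTCA, and each sequence reads 5′ to 3′ on the strand of its gene.
Ucp1 promoter, chr8:83290098-83290347, plus strand: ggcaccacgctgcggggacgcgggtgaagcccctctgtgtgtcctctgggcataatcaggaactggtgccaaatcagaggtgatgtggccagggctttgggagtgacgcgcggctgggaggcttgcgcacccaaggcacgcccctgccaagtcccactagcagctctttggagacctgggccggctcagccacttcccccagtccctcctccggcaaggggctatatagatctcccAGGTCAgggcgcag
Plin5 promoter, chr17:56117549-56117798, minus strand: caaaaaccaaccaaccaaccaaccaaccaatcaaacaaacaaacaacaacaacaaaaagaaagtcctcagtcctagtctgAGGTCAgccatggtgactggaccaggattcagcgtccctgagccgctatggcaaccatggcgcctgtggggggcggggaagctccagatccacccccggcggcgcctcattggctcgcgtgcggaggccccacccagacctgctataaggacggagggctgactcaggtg
Sucla2 promoter, chr14:73552536-73552785, plus strand: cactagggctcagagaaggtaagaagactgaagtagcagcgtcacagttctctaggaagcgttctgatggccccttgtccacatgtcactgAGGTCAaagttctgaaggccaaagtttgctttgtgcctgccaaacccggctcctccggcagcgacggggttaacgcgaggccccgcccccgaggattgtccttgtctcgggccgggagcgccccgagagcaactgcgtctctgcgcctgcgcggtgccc
In the Ucp1 window the motif lies close to the start site, and in the Plin5 and Sucla2 windows farther upstream. A match is a description of letters, not of a bound site.

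Genes of cell division were higher as a group. Of 34 measured cell cycle and DNA replication genes 12 rose, beside 0.658% of all genes, and none fell. All 34 had a positive fold change, and the median was 0.74. In 29 of the 34 every f/f array lay above every control, beside 8.56% of all genes. Birc5, a protein of the chromosomal passenger complex, had signals of 5.18, 5.67 and 4.8 in the f/w arrays and 6.53, 6.31, 6.41 and 6.57 in the f/f arrays (log2 fold change 1.24 ± 0.19, adjusted p = 0.046). Mcm6, a subunit of the replicative helicase, had 7.01, 6.94 and 6.81 against 8.02, 8.0, 7.58 and 8.19 (1.03 ± 0.14, adjusted p = 0.0459). Rrm2, which makes deoxynucleotides, had 6.91, 7.21 and 6.67 against 7.85, 7.96, 7.86 and 8.2 (1.03 ± 0.14, adjusted p = 0.0459). In Rrm2 and Birc5 the gap between the nearest arrays of the groups was wider than the range of the f/f arrays.

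Ccnd2, a D-type cyclin, rose by 1.03 ± 0.16 (adjusted p = 0.0459), where Ccnd1 stood at 0.06 (adjusted p = 0.867). Bub1, of the spindle checkpoint, rose by 1.01 ± 0.15 (adjusted p = 0.0459), and Aurka, a mitotic kinase, by 0.91 ± 0.14 (adjusted p = 0.046). Mki67, the usual marker of dividing cells, had 9.08, 9.4 and 8.97 against 9.5, 9.67, 10.0 and 10.0, without overlap (0.64 ± 0.16, adjusted p = 0.0895). E2f1 and E2f2, transcription factors of the S phase, were at 0.14 (adjusted p = 0.336) and 0.03 (adjusted p = 0.976). The median of the list was 0.63 without f/w 3 and 0.54 with the muscle covariate, where Birc5 was at 0.64. Which cells of the tissue were dividing cannot be read from bulk RNA.

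The E2F motif, searched on both strands as TTTCCCGC, TTTCGCGC, TTTGCCGC or TTTGGCGC, was in none of the 85 windows of genes that fell, in 9 of 109 of genes that rose (8.26%) and in 459 of 16990 in all (2.7%). CCAAT, the box common in cell cycle promoters, was in 21 of 27 windows of the cell cycle list (77.8%), in 36.5% of the windows of genes that fell, in 45.9% of those that rose and in 38.7% of all. It was also in 60.0% for the citric acid cycle list, 52.0% for fatty acid oxidation and 46.2% for brown fat thermogenic genes. A share above that of all genes was thus not particular to the cell cycle list. TTTGAA, also searched, was in 29.6% for the cell cycle list and in 16.1% of all. The Mcm6 window is shown because it holds 3 E2F matches, 2 of which overlap on opposite strands, and 2 CCAAT boxes, read as ATTGG on this strand. Capitals mark these matches.
Mcm6 promoter, chr1:128359706-128359955, minus strand: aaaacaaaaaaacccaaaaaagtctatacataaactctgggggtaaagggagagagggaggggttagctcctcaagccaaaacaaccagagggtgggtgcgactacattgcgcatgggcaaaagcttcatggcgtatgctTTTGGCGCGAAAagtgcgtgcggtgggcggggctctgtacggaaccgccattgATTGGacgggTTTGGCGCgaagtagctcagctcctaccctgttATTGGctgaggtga

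Genes of fibroblasts and their matrix were higher too. Of 29 measured genes 6 rose, beside 0.658% of all genes, and none fell. All 29 had a positive fold change, 24 were without overlap, beside 8.56% of all genes, and the median was 0.58. Mmp2, a protease that remodels matrix, had 7.55, 7.03 and 7.04 against 8.54, 8.25, 8.09 and 8.45 (1.12 ± 0.16, adjusted p = 0.0459). Col1a1, a chain of the main fibrillar collagen, had 10.25, 10.23 and 9.93 against 10.71, 10.67, 10.77 and 10.8 (0.60 ± 0.09, adjusted p = 0.0459), and Loxl1, which cross-links elastic fibres, had 7.69, 7.54 and 7.44 against 8.25, 8.26, 8.13 and 8.17 (0.64 ± 0.07, adjusted p = 0.036). The groups were tight and clearly apart in both. Col3a1 rose by 0.63, Fn1, fibronectin, by 0.67 and Col14a1 by 0.76. The brightest members of the list were not called: Postn, Bgn and Dcn had 0.50, 0.41 and 0.58 with adjusted p from 0.071 to 0.15. The mean of the list was 8.09, 7.86 and 7.66 in the f/w arrays and 8.45, 8.36, 8.41 and 8.52 in the f/f arrays. Its median was 0.43 without f/w 3 and 0.24 with the muscle covariate, where Col1a1 was at 0.34 and Col3a1 at 0.29.

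limma called none of 20 preadipocyte and stromal progenitor markers (7 at an unadjusted p under 0.05, median 0.23, and 0.08 with the muscle covariate). Those with the largest differences were Gpc3, a glypican (0.98, adjusted p = 0.0515), Dpt, a dermal matrix protein (0.88, adjusted p = 0.0526), and Pdgfra, a receptor of stromal cells (0.85, adjusted p = 0.0656), all 3 without overlap; Gpc3 and Pdgfra were named after their values were seen. Of 16 smooth muscle and pericyte markers 2 rose: Acta2 had 9.35, 9.01 and 8.87 against 10.0, 9.89, 9.7 and 9.78 (0.76 ± 0.13, adjusted p = 0.0478), and Cnn1 had 4.52, 4.52 and 4.13 against 5.15, 5.11, 5.21 and 5.15 (0.77 ± 0.10, adjusted p = 0.0459). Both are actin or actin-binding proteins of smooth muscle and of activated fibroblasts. Acta2 was at 0.45 and Cnn1 at 0.42 with the muscle covariate. Des, desmin, which skeletal muscle also makes, was at 0.63 (adjusted p = 0.108) and Smtn, smoothelin, at 0.36 (adjusted p = 0.0968), both without overlap. Myh11, the myosin of smooth muscle, was at 0.09 (adjusted p = 0.711) and Rgs5, a pericyte gene, at -0.12 (adjusted p = 0.738). Beside the 2 of 16 that rose, 0.658% of all genes rose. Over the 16 genes 4 had every f/f array above every control, beside 8.56% of all genes. An unadjusted p under 0.05 was reached by 4, beside 4447 of 22180 genes in all, and the median was 0.12. The mean of the list was 6.22 to 6.25 in the f/w arrays and 6.4 to 6.45 in the f/f arrays, without overlap.

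Of 23 cartilage, bone and tendon markers 2 rose, beside 0.658% of all genes. They were Phex, an endopeptidase of bone cells (1.34 ± 0.16, adjusted p = 0.0439), and Alpl, alkaline phosphatase (0.96 ± 0.16, adjusted p = 0.0495). The defining genes of cartilage and bone did not move with them: Col2a1 was at -0.02, Acan at -0.10, Sp7 at -0.01 and Ibsp at -0.18. Among 28 lymphocyte, mast cell and granulocyte markers Cma1, the mast cell chymase, rose from 7.67, 7.31 and 7.28 to 8.49, 8.37, 8.15 and 8.34 (0.92 ± 0.12, adjusted p = 0.0439). Other mast cell proteases lay in the same direction without passing, Cpa3 at 0.69 (adjusted p = 0.0784) and Tpsb2 at 0.81 (adjusted p = 0.0756), both without overlap, while the T cell gene Cd3e was at -0.18 (adjusted p = 0.206).

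Skeletal muscle structural genes had the highest median of the 41 lists, 1.01, with 42 of 45 positive, beside 46.2% of all genes. In 33 every f/f array lay above every control, beside 8.56% of all genes. limma called none of the 45 (35 at an unadjusted p under 0.05, beside 4447 of all 22180 genes). Myh3, the embryonic myosin, had 7.73, 8.37 and 6.41 against 8.96, 8.79, 9.23 and 9.28 (1.56 ± 0.42, adjusted p = 0.106). The control arrays spread over nearly the whole range below the f/f arrays, with f/w 3 far under the other controls. Acta1 had 9.44, 9.73 and 8.09 against 10.7, 10.44, 10.31 and 10.04 (1.29 ± 0.38, adjusted p = 0.13). Without f/w 3 the median of the list was 0.58. Mb, myoglobin, which brown fat also makes, went the other way: 5.02, 4.74 and 4.71 against 4.4, 4.02, 4.5 and 4.41 (-0.49 ± 0.13, adjusted p = 0.109). Of 24 myogenic regulators and precursor genes limma called none (9 at an unadjusted p under 0.05), and the median was 0.14. Myf5, whose promoter drives the Cre, had 4.2, 3.83 and 3.71 against 4.15, 3.84, 3.61 and 3.85 (-0.05 ± 0.16, adjusted p = 0.884), Pax7, a gene of muscle stem cells, was at -0.10 (adjusted p = 0.593), and Myf6, a factor of late muscle differentiation, at 1.41 (adjusted p = 0.08).

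Lists of other cell types had medians nearer 0. For the counts that follow, 4447 of all 22180 genes had an unadjusted p under 0.05, and 1.16% were called. Endothelial and lymphatic markers had a median of -0.06 over 22 genes, with none called by limma and 2 at an unadjusted p under 0.05, and Cdh5 and Pecam1, defining genes of vessels, were at -0.16 (adjusted p = 0.727) and -0.03 (adjusted p = 0.939). The median of this list turned to 0.25 with the muscle covariate. Macrophage and antigen presentation genes had a median of 0.17 over 26, with none called and 8 at an unadjusted p under 0.05, and 0.04 with the muscle covariate. Schwann and neural markers had a median of -0.01 over 23 genes, keratinocyte markers -0.08 over 23 and interferon response genes -0.07 over 24, with none called and 5, 2 and 2 genes at an unadjusted p under 0.05. Of 15 erythroid genes Tfrc, the transferrin receptor, fell, by 0.80 ± 0.13 (adjusted p = 0.047), and Slc4a1, a defining gene of red cells, was at 0.03 (adjusted p = 0.972). The stress lists had medians of 0.03 (unfolded protein and integrated stress response, 23 genes), -0.06 (hypoxia, 18) and -0.07 (p53 targets, 16), with none called and 2, 9 and 6 genes at an unadjusted p under 0.05.

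Imprinted growth genes, which are high in the fetus, were mostly higher in f/f, with 17 of 20 positive. In 11 every f/f array lay above every control, beside 8.56% of all genes. limma called none of the 20 (14 at an unadjusted p under 0.05, beside 4447 of all 22180 genes). The median was 0.40 (0.32 without f/w 3, 0.10 with the muscle covariate). Dlk1, a membrane protein of precursor cells that holds back fat cell formation, had 9.11, 9.05 and 8.43 against 9.6, 9.58, 9.56 and 9.48 (0.69 ± 0.16, adjusted p = 0.0794). The log2 fold change of Dlk1 was 0.47 without f/w 3, its lowest array, and with the muscle covariate it was 0.08 (adjusted p = 0.882). Mest, another such gene of growing fat tissue, had 11.31, 11.32 and 11.23 against 11.34, 11.44, 11.42 and 11.35 (0.10 ± 0.05, adjusted p = 0.342).

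Dlk1 opens an imprinted domain on chromosome 12 that also yields the long RNAs Meg3 and Rian and a large cluster of microRNAs from the maternal copy, and that ends at Dio3, the deiodinase that inactivates thyroid hormone. The domain was looked at after the values were seen, and what follows is a description. Between Dlk1 and Dio3 (chr12:109452485-110281097, GRCm38.p6), 55 of 103 RefSeq genes were measured. From Dlk1 to the last microRNA, a stretch of 290.7 kb, 50 of 52 genes were positive, 3 rose and the median was 0.62. In 26 of the 52 every f/f array lay above every control, beside 8.56% of all genes. Neighbouring clusters of this stretch could read the same longer RNAs, so the 52 genes cannot be counted as independent. The counts and medians of the stretch and of its microRNA genes describe it, and a difference from other genes was not tested. The 43 microRNA genes in this stretch had a median of 0.54. The 441 microRNA genes elsewhere in the genome had a median of -0.02 with 43.3% positive. The medians were 0.47 for the 52 genes and 0.44 for the 43 microRNA genes without f/w 3. With the muscle covariate they were 0.24 and 0.34, with 42 and 34 genes positive. Beyond the last microRNA, Dio3os was at -0.14, 3110009F21Rik at -0.05 and Dio3 at 0. Dio3 had a signal of 2.75 or 2.76 in every array, near the lower quartile (2.56 to 2.59). 3110009F21Rik had 3.03 to 3.31 and Dio3os 3.54 to 4.07. Fold changes of genes this dim say little, so they mark no edge of the rise within the domain. The same limit holds for dim genes among the 50 positive ones. For example, Mir411 had 1.71 to 2.3, Mir376c 2.01 to 2.2 and Mir376a 1.8 to 2.29.

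The 3 that rose were all microRNA genes. Mir495 had 2.07, 2.04 and 2.28 against 3.06, 2.93, 3.15 and 3.31 (0.98 ± 0.10, adjusted p = 0.036), Mir654 had 4.62, 4.52 and 4.16 against 5.49, 5.11, 5.51 and 5.71 (1.02 ± 0.16, adjusted p = 0.0462), and Mir382 had 4.99, 5.29 and 4.92 against 6.04, 5.63, 6.0 and 6.05 (0.86 ± 0.13, adjusted p = 0.046). The f/w arrays of Mir495 all lay under the lower quartile of their array, so its fold is at least 1.44. Meg3 was 4.56, 4.43 and 3.69 against 4.95, 4.72, 4.96 and 5.13 (0.71 ± 0.21, adjusted p = 0.13), and Rian 9.77, 9.6 and 8.93 against 10.42, 10.1, 10.19 and 10.33 (0.82 ± 0.20, adjusted p = 0.0837). In both f/w 3 was the lowest array, as it was for Dlk1. Mir666 went against the rest, at -0.47 (adjusted p = 0.143). Outside the domain 1 microRNA gene rose, Mir3095, by 0.94 ± 0.09 (adjusted p = 0.036). These clusters read any RNA that contains the hairpin and do not measure the mature microRNA. The mature sequences of the 4 genes, from RefSeq, are given with the seed (bases 2 to 8) in capitals to show what the transcripts encode. The 7 mature forms have 7 distinct seeds.
mmu-miR-495-5p: gAAGUUGCccauguuauuuuucg
mmu-miR-495-3p: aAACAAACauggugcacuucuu
mmu-miR-654-5p: uGGUAAGCugcagaacaugugu
mmu-miR-654-3p: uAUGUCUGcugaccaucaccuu
mmu-miR-382-5p: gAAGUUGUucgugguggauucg
mmu-miR-382-3p: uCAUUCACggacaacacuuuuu
mmu-miR-3095-3p: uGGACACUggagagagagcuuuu

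**Figure D4:**
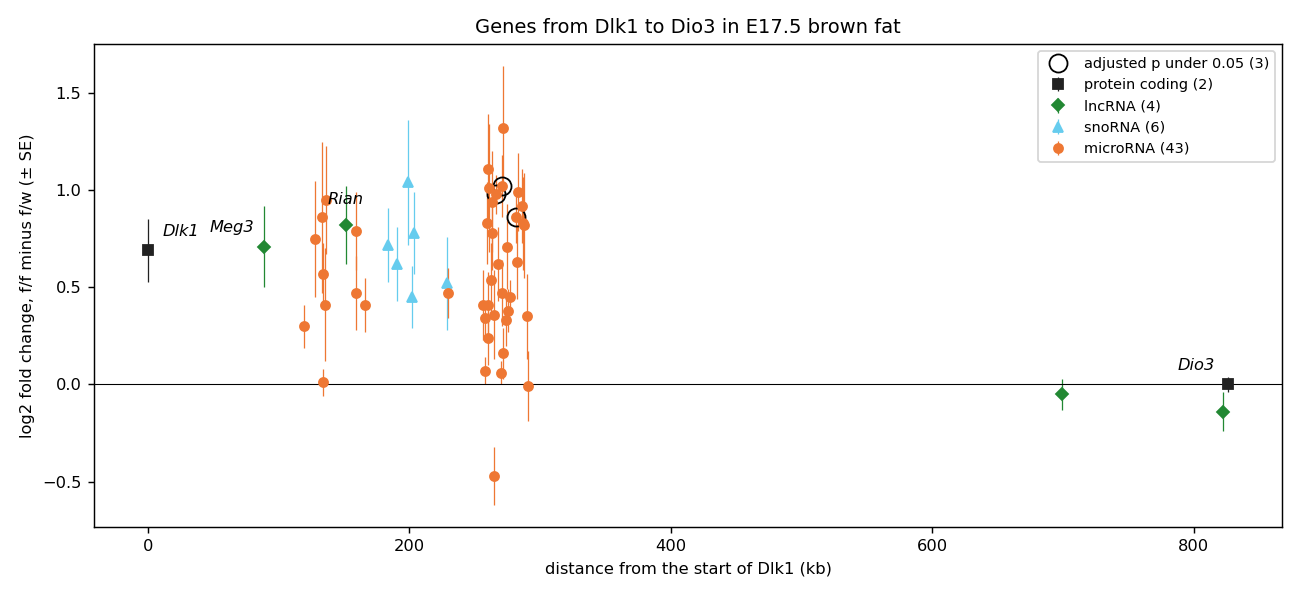
Log2 fold change (f/f minus f/w, ± SE) of the 55 measured genes from Dlk1 to Dio3 by their distance from the start of Dlk1 in kb; symbols give the kind of gene and black rings the 3 with adjusted p under 0.05. Points from Dlk1 to 290.7 kb lie above 0 for 50 of 52 genes. The 3 genes beyond it lie at or near 0, and among them the signal of Dio3 was near the lower quartile of the arrays. Some microRNA genes within the stretch, such as Mir411, were dimmer than Dio3.

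Among the other genes with the largest falls was Lncbate10, a long noncoding RNA of brown fat, at 7.21, 6.45 and 7.73 against 5.2, 5.18, 5.1 and 4.54 (-2.12 ± 0.31, adjusted p = 0.0459). Acss1, the mitochondrial acetyl-CoA synthetase, fell by 1.61 ± 0.27 (adjusted p = 0.0493), and Ces1d, a carboxylesterase that hydrolyses stored lipid, by 1.60 ± 0.22 (adjusted p = 0.0459). Adssl1, the muscle form of adenylosuccinate synthase, fell by 1.46 ± 0.24 (adjusted p = 0.0481), against the direction of the skeletal muscle list. Defb42 (-1.82), Rgs7 (-1.65) and Tmem45b (-1.60) completed the 12 largest. At the other end stood Egfl6, a secreted matrix protein, at 6.71, 6.66 and 5.78 against 7.93, 7.86, 7.71 and 8.2 (1.54 ± 0.24, adjusted p = 0.046), and Tmem26, used as a marker of beige fat cells, at 5.57, 5.45 and 5.14 against 6.95, 6.35, 6.76 and 7.29 (1.45 ± 0.22, adjusted p = 0.0459). Fzd2, a Wnt receptor, rose by 1.09 ± 0.10, Bex3 by 1.11 ± 0.12 and Septin6 by 1.10 ± 0.11, each with an adjusted p of 0.036. Lncbate10 with the muscle covariate was at -1.36, Acss1 at -1.07, Ces1d at -0.80, Adssl1 at -0.96, Rgs7 at -1.03 and Egfl6 at 0.74.

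The embryonic effect was set against that in adult brown fat at 10 weeks, where 2 arrays of AdipoqCreMed1f/f tissue were compared with 2 of Med1f/f tissue without Cre. Adipoq-Cre acts in mature fat cells, so the Cre, the age and the genotype of the control all differ between the experiments and cannot be told apart. In the adult, 6 genes passed (0.0271%). The difference between the effects, tested with the 11 arrays of both ages together, passed for 441 genes (1.99%). It rests on few arrays: leaving out f/w 2, f/w 3, f/f 1, f/f 2 or f/f 3 of the embryo gave 292, 265, 288, 220 and 206 genes, and leaving out any other array 294 to 524. Egfl6 (adjusted p = 0.0621 for the difference) and Ucp1 (0.107) were not among them: Ucp1 was -3.14 in the embryo and -0.97 in the adult. Lncbate10 was the gene called in both, at -2.12 and -4.11.

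Several genes that rose in the embryo differed from the adult. Tmem26 was 1.45 in the embryo and -0.23 in the adult (adjusted p of the difference 0.0257), Phex 1.34 and -0.11 (0.0274), Fzd2 1.09 and -0.07 (0.0303) and Septin6 1.10 and 0.15 (0.0341). So did Mir495, named after its values were seen, at 0.98 and -0.15 (0.0131). Mmut, which fell by 0.53 in the embryo, was 0.42 in the adult (0.0126). The genes with the most extreme differences were those with large adult values and small embryonic ones. Cyp2e1, a cytochrome P450, was -0.66 in the embryo and -4.94 in the adult, Rhou, a small GTPase, -0.12 and -2.69, Retn, the adipokine resistin, -0.37 and -2.73, and Ppargc1b, a relative of Ppargc1a, -0.66 and -3.01. In the other direction Cpt1a was 0.21 and 3.42, Ptges, a prostaglandin E synthase, -0.04 and 3.11, Nr4a2, an orphan nuclear receptor, -0.38 and 2.71, and Aqp11, an aquaporin, -0.58 and 2.29. None of these 8 passed in the embryo or in the adult alone. The medians of the lists, embryo beside adult, were -0.86 and -0.68 for brown fat thermogenic genes, -0.68 and -0.41 for fatty acid oxidation, 0.74 and 0.13 for the cell cycle, 0.58 and 0.62 for fibroblast matrix and 1.01 and -0.18 for skeletal muscle. The difference was not tested for the lists.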

How the data were processed

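Total RNA of 7 samples was read on Affymetrix whole-transcript arrays after Trizol extraction and biotin labelling with the WT PLUS kit, per the labels' protocols. The table the authors deposited holds log2 values of all 19 arrays. RMA and Transcriptome Analysis Console are named in the submitters' processing notes without versions. The genome build of the array annotation is not given in the sources used here. Medians over all clusters were 3.49 to 3.57 in the embryonic, 2.87 to 2.89 in the adult and 4.69 to 4.79 in the cell arrays, so experiments look normalized separately, and each fold change was taken within 1 experiment. RMA brings arrays to a common distribution, so values are relative within an array, and the number of arrays limits the precision.

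Of 41345 clusters, 23521 had 1 gene symbol, 1814 several and 16010 none, from the platform annotation. For genes with several clusters the one with the highest mean over 19 arrays was used, which left 22180 genes. Groups came from the sample titles. limma 3.58.1 in R 4.3.3 (lmFit, eBayes, two-sided, 5 residual degrees of freedom) gave p-values adjusted by Benjamini-Hochberg over all genes, with a threshold of 0.05. Where all arrays of the dimmer group were under their own lower quartile (2.56 to 2.59), the fold is a lower bound. Same-numbered arrays of the groups are not paired by the labels or by their correlations.

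The members and the 41 gene lists were chosen with earlier results of these data known; genes of several lists count in each. Genes were named by a rule: 31 set genes of adipocyte biology, the 12 called genes without overlap farthest in each direction (predicted, unnamed and small RNA genes left out), at most 6 called genes of each list, the 3 brightest genes of each list of another cell type, and the 4 highest and 4 lowest called differences from the adult. Other genes named were chosen after their values were seen: P2rx5, Cox8b, Cox7a1, Ppara, Zic1, Suclg2, Idh2, Atp5o, Atp5j, Med12l, Med14, Thra, Ccnd1, E2f1, E2f2, Smtn, Myh11, Rgs5, Gpc3, Pdgfra, Col2a1, Acan, Sp7, Ibsp, Cd3e, Mb, Pax7, Myf6, the genes of the Dlk1 to Dio3 domain other than Dlk1, Mir3095, and those of the closing observations. Alternatives were other moderation, weights, arrays in the fit, filters, normalization, cluster choice, a muscle covariate, a replicate block and each array left out; for the domain they were added after its values were seen.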

Additional observations from a re-analysis of the deposited data

Results flagged for a closer look

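In the 4 f/f arrays, 143 values were searched for an array set apart from the others by Dixon's test, and 5 were found (3.5%); chance flags about 1 in 20. In f/f 4, Cidea was 9.68 where the other f/f arrays had 10.3 to 10.42, Lncbate10 was 4.54 where they had 5.1 to 5.2, Ptges was 3.56 where they had 4.02 to 4.1, and the mean of the epidermal keratinocyte markers was 3.31 where they had 3.21 to 3.23. In f/f 3, Cyp2e1 was 3.13 where the other f/f arrays had 3.8 to 3.83. Cidea and Lncbate10 are lower in f/f than in f/w, and f/f 4 is the lowest array for both.

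The effect in the embryo differed from that in the adult, by limma's test of the difference, for 14 of the genes named by the rule. Cpt1a, Ptges, Nr4a2, Aqp11, Cyp2e1, Rhou, Retn and Ppargc1b were named because they had passed this test. Tmem26, Phex, Fzd2 and Septin6 were named for large embryonic effects in these same data. The count of 14 is therefore not a result about the named genes. The embryonic minus the adult log2 fold change was below 0 for Cpt1a (-3.22, adjusted p = 0.00336), Ptges (-3.14, adjusted p = 0.00413), Nr4a2 (-3.1, adjusted p = 0.0104), Aqp11 (-2.88, adjusted p = 0.00256) and Mmut (-0.95, adjusted p = 0.0126). It was above 0 for Des (2.05, adjusted p = 0.00497), Cyp2e1 (4.28, adjusted p = 0.0146), Rhou (2.56, adjusted p = 0.00537), Retn (2.35, adjusted p = 0.0126), Ppargc1b (2.35, adjusted p = 0.0126), Tmem26 (1.68, adjusted p = 0.0257), Phex (1.45, adjusted p = 0.0274), Fzd2 (1.15, adjusted p = 0.0303) and Septin6 (0.95, adjusted p = 0.0341). It also differed for 7 genes named after their values were seen: Cd3e (-1.41, adjusted p = 0.00659), Cd59a (-1.36, adjusted p = 0.00609), Iscu (-0.93, adjusted p = 0.0265), Suclg2 (-0.91, adjusted p = 0.0289), Ppara (2.17, adjusted p = 0.0424), Mir495 (1.13, adjusted p = 0.0131) and H1f5 (1.04, adjusted p = 0.0424). The adult side of each rests on 2 arrays a group.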

How the results depend on the processing

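The count of called genes, 257 (146 higher, 111 lower), stayed within 1.5 times under trended and robust moderation, quantile normalization and both other choices of cluster. It was 146 (82 higher, 64 lower) with array weights, 413 (250 higher) with a filter on dim genes, 386 (237 higher) with arrays centred on their median, 814 (471 higher, 343 lower) with all 11 brown fat arrays in the fit, 1527 (867 higher, 660 lower) with all 19, 0 (0 higher, 0 lower) with the muscle covariate, and 0 (0 higher, 0 lower) with the replicate number as a block (smallest adjusted p = 0.106, 3844 genes with an unadjusted p under 0.05). The correlations of same-numbered arrays were 0.31, -0.02 and 0.11, so the numbers do not pair the arrays. Without each array in turn limma called 0 genes (0 higher, 0 lower). All 257 kept their direction under every alternative run. For the fits without an array and with array weights this was fixed in advance by the lack of overlap. Other moderation, the dim filter and more arrays in the fit leave the fold change itself unchanged, so they could not turn it either. The difference from the adult passed for 773 genes with all 19 arrays, 338 with the replicate block, and 206 to 524 without each array.

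With the muscle covariate Med1 turned to 0.25, Elovl3 to 0.75, Cyp2e1 to 0.41, Rhou to 0.22, Prdm16 to 0.15 and Fasn to 0.01. Ebf2 was 0.02 after quantile normalization. Ptges was 0 with array weights and 0.09 with the block, and Lep was -0.01 with the block. Without each array in turn Ebf2 ran from -0.14 to 0.04, Prdm16 from -0.33 to 0.04, Myf5 from -0.15 to 0.09, Ptges from -0.09 to 0.09 and Lep from -0.23 to 0.33. Of list medians, that of lymphocyte, mast cell and granulocyte markers was 0.02 with array weights, 0 with the dim filter and with centring, 0.03 after quantile normalization and with the block, 0.05 with the covariate, and -0.02 to 0.03 without each array. That of endothelial and lymphatic markers, -0.06, turned to 0.25 with the covariate, and that of the genes from Dlk1 to the last microRNA was 0.24 with it. That of cholesterol synthesis genes ran from -0.33 (without f/w 2) to 0.13 (without f/f 3), that of adipogenic regulators from -0.02 to 0.07 and that of erythroid genes from -0.02 to 0.07 without each array, and that of cartilage markers was 0 with the dim filter. The cause was not tested for any of these. With 3 and 4 arrays, differences near the threshold could not be settled, and RMA values carry no test against background.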

Other observations

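Called genes outside the lists, picked after their values were seen, included several of mitochondrial upkeep and several of chromatin. Of the former Sod2, the superoxide dismutase of mitochondria, fell by 0.79, Iscu, the scaffold for iron-sulfur clusters, by 0.70, Cisd1, an iron-sulfur protein of the outer membrane, by 0.75, Clpx, a subunit of a mitochondrial protease, by 0.93, Aifm1, needed for complex assembly, by 0.66, and Timm44, of protein import, by 0.65 on the log2 scale. Of the latter H1f5, a linker histone, rose by 1.03, H2ax by 0.99, Asf1b, a histone chaperone, by 0.89 and Dnmt1, which copies DNA methylation at replication, by 0.62. Cdon and Gli3, of the Hedgehog pathway, rose by 1.0 and 0.79.

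All 19 measured ribosomal protein genes had a positive fold change, with a median of 0.26. Of the 19, 10 were without overlap, beside 8.56% of all genes. limma called none of the 19, and 11 had an unadjusted p under 0.05, beside 4447 of 22180 genes in all. Without f/w 3 their median was 0.23, and with the muscle covariate 0.09. Glycolysis and glucose uptake genes had a median of -0.19 over 25 genes, fatty acid uptake genes -0.17 over 19, cholesterol synthesis genes -0.03 over 19 (-0.33 without f/w 2, 0.13 without f/f 3), circadian clock genes -0.18 over 16 and glucocorticoid targets -0.19 over 19. limma called none of them, and 14, 9, 4, 5 and 7 had an unadjusted p under 0.05. Hk2, which traps glucose in muscle and fat cells, was at -0.98 (adjusted p = 0.0728) and Gapdh at -0.02 (adjusted p = 0.883).

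The 3 called genes nearest to the threshold were Etfrf1 (-0.83), Mmaa (-0.64) and Exo1 (0.74), each with an adjusted p of 0.05 after rounding, and the 3 nearest on the other side were Tmem176b (0.42), Decr1 (-0.70) and Cd59a (-0.56), with 0.0501 to 0.0502. A further 1142 genes had an adjusted p between 0.05 and 0.10.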
